A study of Mus musculus with 6 samples.

Results

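Hox genes encode homeodomain transcription factors that stand in 4 chromosomal clusters in the mouse. All symbols made of Hox, a cluster letter and a number were taken from the count table, without antisense and opposite-strand symbols, which gave 39 genes of the 33274 in the table once both symbols of 18S ribosomal RNA were set aside. They comprised 11 genes of the Hoxa cluster on chromosome 6, 10 of Hoxb on chromosome 11, 9 of Hoxc on chromosome 15 and 9 of Hoxd on chromosome 2. Their counts were compared between 3 libraries of circulating fibroadipogenic progenitors (FAPs), from peripheral blood, and 3 libraries of FAPs from muscle. Both groups carry the label MCAO (middle cerebral artery occlusion, a stroke model), so the comparison is of 2 sources of cells and not of stroke with its absence. FAPs are the mesenchymal progenitors of the muscle interstitium, which can become fibroblasts or adipocytes. The labels used here name neither the muscle nor the age, sex, genotype or time after occlusion, and whether each library came from its own mouse is not stated, so a p-value here reflects only how far these libraries differ, which may be technical.

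Along each cluster, genes with low paralogue numbers are used in anterior parts of the embryo and genes with high numbers in posterior parts and distal limbs. Genes with the same number in different clusters are paralogues that share much of their sequence and part of their function. Connective tissue cells keep much of this pattern after birth, so the set of Hox genes a fibroblast or FAP transcribes is a record of the body position it came from. The TALE proteins Pbx, Meis and Pknox bind DNA together with Hox proteins, and Polycomb and Trithorax complexes keep the genes of a cluster off or on.

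The libraries held 5522193 to 13813329 counts in circulating FAPs and 17532558 to 23424039 in muscle FAPs, and without 18S 3106011 to 7880709 in circulating FAPs and 12663430 to 15864333 in muscle FAPs. Levels are given as reads per kilobase of exon per 1000000 counts (RPKM), with 18S left out and library sizes scaled by the trimmed mean of M values (TMM). A background was read from 561 chemosensory receptor genes (of the vomeronasal, taste and trace amine families), taken as silent in these cells. Its 95th percentile lay at 2.07, 2.56 and 2.26 RPKM in circulating replicates 1, 2 and 3, and at 1.41, 1.33 and 0.992 RPKM in muscle replicates 1, 2 and 3, and a gene above it in its library is called above background here. The 6 FAP markers Pdgfra, Ly6a, Cd34, Dcn, Col1a1 and Gsn were above background in every library and summed to 37075 to 37785 counts per 1000000 (CPM) in circulating FAPs, against 80753 to 96991 CPM in muscle FAPs; Col1a1 and Gsn fell in circulating FAPs (adjusted p = 0.0423 and 0.0301 in edgeR). Leukocyte markers summed to 168 to 306 CPM in circulating FAPs, against 32.5 to 41.5 CPM in muscle FAPs, with 2 of 12 above background in all circulating libraries and none in all muscle libraries. Of the 11 leukocyte markers tested, 0 passed in edgeR. In DESeq2 4 were higher in circulating FAPs (against 1.02% of all tested genes) and 0 lower. Of the 11, 10 had a positive log2 fold change and 1 a negative one, where 46.6% of all tested genes had a negative one. Every circulating library lay above every muscle library in 6, against 16% of all tested genes, and below in 0, against 11.8%. The most abundant leukocyte marker was S100a8, a granulocyte calcium-binding protein. It had 15.2, 10.6 and 149 RPKM in circulating FAPs, against 4.13, 0.882 and 18.6 RPKM in muscle FAPs, with overlap. Haematopoietic progenitor markers summed to 41.6 to 55.0 CPM in circulating FAPs, against 25.8 to 33.9 CPM in muscle FAPs, none of 8 above background in all 3 circulating libraries. Mural markers summed to 38.1 to 80.2 CPM in circulating FAPs, against 141 to 302 CPM in muscle FAPs, and Schwann markers to 10.7 to 28.5 CPM in circulating FAPs, against 34.6 to 59.8 CPM in muscle FAPs. No gene of the FAP, leukocyte and progenitor lists was at 0 throughout a group. The part of other cells in the Hox values was not tested, and fewer cells of a type and less RNA per cell cannot be told apart in bulk libraries.

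Among the 17 Hox genes with enough reads to be tested, the largest difference lay in Hoxc9, and its sequence is shown beside related genes because near-identical copies could share reads. The homeobox, the 60 codons that encode the DNA-binding homeodomain, is the most conserved part of these genes. Below, the homeoboxes of Hoxc9, its paralogue Hoxb9 and Hoxc10, the cluster neighbour, are given from the GENCODE M21 transcripts, 5′ to 3′ on the coding strand, with bases that differ from Hoxc9 in capitals.
Hoxc9: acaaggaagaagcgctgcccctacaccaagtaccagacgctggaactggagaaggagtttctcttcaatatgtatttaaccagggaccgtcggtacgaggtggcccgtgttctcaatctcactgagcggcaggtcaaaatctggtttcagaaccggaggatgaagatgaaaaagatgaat
Hoxb9: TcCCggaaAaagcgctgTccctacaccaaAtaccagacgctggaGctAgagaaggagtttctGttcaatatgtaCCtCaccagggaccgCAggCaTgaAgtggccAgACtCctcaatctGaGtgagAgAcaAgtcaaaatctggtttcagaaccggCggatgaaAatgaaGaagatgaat
Hoxc10: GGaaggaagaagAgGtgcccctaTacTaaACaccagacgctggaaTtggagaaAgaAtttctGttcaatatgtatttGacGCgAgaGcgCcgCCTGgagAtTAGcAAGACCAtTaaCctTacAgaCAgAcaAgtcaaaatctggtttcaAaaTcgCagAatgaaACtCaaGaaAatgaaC
The homeobox of Hoxc9 differed at 29 of 180 bases in Hoxb9 and at 51 in Hoxc10. Over whole coding sequences, the longest run that Hoxc9 shared exactly with any other Hox gene was 31 bases, with Hoxa9. Among all 39 genes the longest such run was 52 bases, between Hoxa6 and Hoxb4. Library read length is not given in the sources used here, so whether reads within such runs were assigned to the wrong member was not tested.

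In both groups the Hox signal was mainly a central to posterior HoxC pattern. The Hoxc cluster held 65.2% ± 7.03 (SD, n = 3) of the summed Hox level in circulating FAPs and 61.6% ± 9.31 in muscle FAPs, with Hoxc10 the most abundant member over the 6 libraries. Single libraries made up part of this share in circulating FAPs. Hoxc5 held 33.6% of the summed level in circulating replicate 1 and 0% in replicates 2 and 3. Hoxc4 held 22.3% in circulating replicate 2, against 1.98% and 0.645% in replicates 1 and 3. In muscle FAPs 6 of 39 members were above background in all 3 libraries (Hoxa10, Hoxc8, Hoxc9, Hoxc10, Hoxc11 and Hoxd8), where 27% of all genes with an exon length were. In circulating FAPs these were 3 members (Hoxc6, Hoxc10 and Hoxc11), against 16.1% of all genes. Both groups had Hoxc10 and Hoxc11 above background in all 6 libraries, and 24 members were above it in none. The background itself stood higher in circulating libraries, so a member needed a higher level to pass there.

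**Figure D1:**
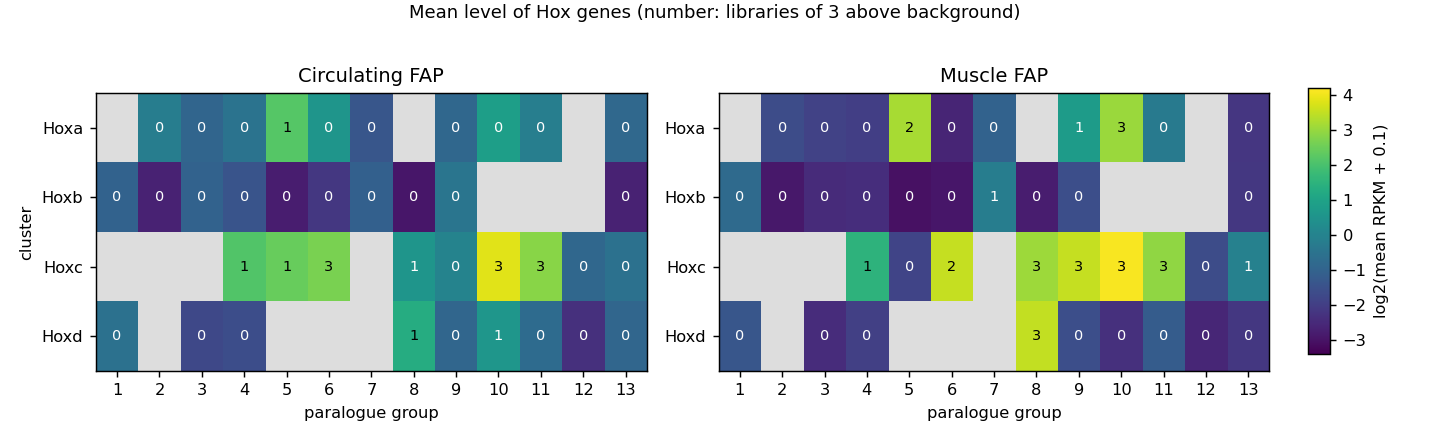
Mean level of the Hox genes as log2(RPKM + 0.1) by cluster (rows) and paralogue group (columns), circulating FAPs left and muscle FAPs right. Numbers give how many of the 3 libraries were above background and grey fields have no gene or one not shown. Hoxc8, Hoxc9, Hoxa10 and Hoxd8 pass in 3 muscle libraries, while Hoxc10 and Hoxc11 pass in 3 libraries of each group.

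No Hox gene passed an adjusted p of 0.05 in edgeR's quasi-likelihood test with Benjamini-Hochberg adjustment over all 20658 genes tested, of which 0.126% passed (0.121% lower and 0.00484% higher in circulating FAPs). The filter on low counts left 17 of the 39 members, so the counts and the median that follow describe only those. At an unadjusted p under 0.05, 4 members were lower and 2 higher in circulating FAPs, where 10.2% of all tested genes were lower and 9.16% higher. The median log2 fold change, circulating minus muscle, was -0.49 for the 17 members and 0.12 for all tested genes. With upper quartile scaling these medians were 0.06 for the members and 0.83 for all tested genes. Without a filter, which adds genes of few reads, they were 0.47 over all 39 members and 0.16 over all genes. Of the 17, 11 had a negative value, where 46.6% of all tested genes had. In DESeq2 3 members passed, all lower (Hoxc9, Hoxa10 and Hoxd8), where 5.43% of all tested genes were called lower and 1.02% higher. Every circulating library lay below every muscle library in 4 members, against 11.8% of all tested genes, and above every muscle library in 1 (Hoxa3), against 16%.

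Hoxc9, which patterns the thoracic region, had 0.395, 0.917 and 1.37 RPKM in circulating replicates 1, 2 and 3, against 14.5, 12.6 and 7.31 RPKM in muscle replicates 1, 2 and 3. The groups did not overlap, and the gene was under background in all circulating libraries (0.191 to 0.607 times its 95th percentile) and above it in all muscle libraries (7.37 to 10.3 times). Behind these levels stood 8, 10 and 18 reads in circulating FAPs, against 343, 350 and 208 reads in muscle FAPs. The log2 fold change was -3.69 ± 0.76 (SE; adjusted p = 0.0909 in edgeR and 1.09e-05 in DESeq2). Leaving out each library in turn gave log2 fold changes between -4.21 and -3.37, with adjusted p between 0.143 and 0.255 in edgeR. Without the filter on low counts it passed in edgeR (adjusted p = 0.0490), where 0.431% of all genes were called lower.

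Hoxc8, the neighbouring thoracic gene, had 1.36, 2.75 and 0 RPKM in circulating FAPs, against 13.1, 5.59 and 6.42 RPKM in muscle FAPs, without overlap. Its log2 fold change was -2.62 ± 1.14 (SE; adjusted p = 0.246 in edgeR and 0.0702 in DESeq2). In circulating FAPs it was above background in replicate 2 only, by a factor of 1.08, and replicate 3 had no read.

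Hoxc10 and Hoxc11, which pattern the lumbar and sacral region and the hindlimb, had values that overlapped between the groups. Hoxc10 had 7.23, 4.32 and 31.3 RPKM in circulating FAPs, against 16.4, 21.8 and 14.1 RPKM in muscle FAPs (log2 fold change -0.29 ± 0.80, SE; adjusted p = 0.850 in edgeR). Hoxc11 had 3.56, 3.42 and 14.5 RPKM in circulating FAPs, against 10.4, 6.14 and 6.17 RPKM in muscle FAPs (-0.09 ± 0.74, SE; adjusted p = 0.957). Circulating replicate 3 was the highest of all 6 libraries for both, and circulating replicates 1 and 2 lay below every muscle library. These p-values do not show that the groups were equal, and the signs of the fold changes depended on the scaling, the filter and the libraries included. With upper quartile scaling Hoxc10 was at 0.40 and Hoxc11 at 0.63, but the median of all genes then stood at 0.83 in place of 0.12. Relative to that median Hoxc10 was at -0.43 there and at -0.41 with TMM, and Hoxc11 at -0.20 and -0.21. Relative to the median of each setting, Hoxc10 ran from -1.73 to 0.23 over the 15 alternative settings, and Hoxc11 from -1.25 to 0.47.

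The ratio of 2 members within a library does not depend on how libraries are scaled. The level of Hoxc9 was 0.0546, 0.212 and 0.0438 times that of Hoxc10 in circulating FAPs, against 0.884, 0.578 and 0.518 times in muscle FAPs. Against Hoxc11 it was 0.111, 0.268 and 0.0945 times in circulating FAPs and 1.39, 2.05 and 1.18 times in muscle FAPs. Neither Hoxc9 ratio overlapped between the groups, and both were picked after their values were seen. The ratio of Hoxc8 to Hoxc10 did overlap, at 0.188, 0.637 and 0 in circulating FAPs, against 0.799, 0.256 and 0.455 in muscle FAPs. So did that of Hoxa10 to Hoxc10, at 0.243, 0.472 and 0.0435 in circulating FAPs, against 0.141, 0.702 and 0.494 in muscle FAPs. That of Hoxd8 to Hoxc10 did not, at 0.142 to 0.301 in circulating FAPs, against 0.303 to 0.908 in muscle FAPs.

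**Figure D2:**
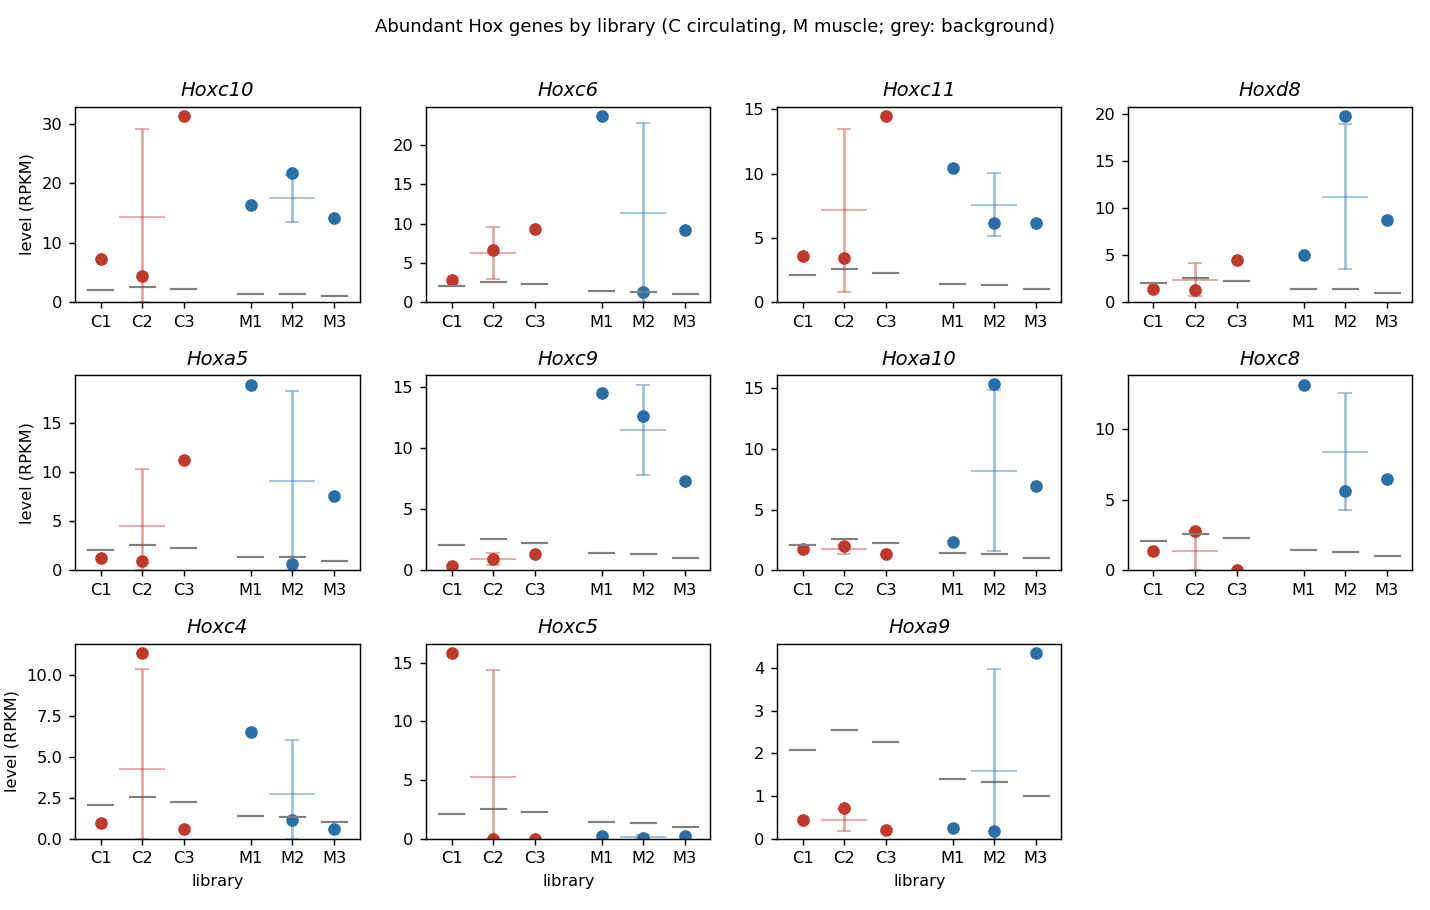
Level in RPKM of abundant Hox genes by library, circulating (red) left of muscle (blue) in each panel. Points are libraries, pale bars the mean and SD of 3 libraries (cut at 0), and grey lines the background of that library. Hoxc9 stays under the grey line in the 3 circulating libraries and far above it in the 3 muscle libraries, while several other genes are high in a single library.

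The 5 further HoxC genes were less regular. Hoxc6, a thoracic gene, had 2.74, 6.57 and 9.37 RPKM in circulating FAPs, against 23.7, 1.23 and 9.19 RPKM in muscle FAPs, so muscle replicate 2 was the lowest of all (log2 fold change -0.87 ± 0.96, SE; adjusted p = 0.616 in edgeR). Without muscle replicate 1 that fold change was 0.18. Hoxc4, which acts at the cervical to thoracic level, had 0.935, 11.3 and 0.576 RPKM in circulating FAPs, against 6.5, 1.16 and 0.599 RPKM in muscle FAPs. Its log2 fold change of 0.62 ± 1.17 (SE; adjusted p = 0.775 in edgeR) became -1.89 without circulating replicate 2.

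Hoxc5 had 407 reads in circulating replicate 1 and none in circulating replicates 2 and 3, against 8, 2 and 8 reads in muscle FAPs, and the filter left it out of the test. That library alone gave it 15.8 RPKM and 33.6% of its summed Hox level. In the GENCODE M21 annotation 5.37% of its exon length overlaps exons of Hoxc10 on the same strand. Hoxc12 was under background in every library, and Hoxc13 was above it in muscle replicate 2 only.

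In the Hoxa cluster the leading genes were Hoxa5 and Hoxa10. Hoxa10, which acts at the lumbar level and in the hindlimb, had 1.76, 2.04 and 1.36 RPKM in circulating FAPs, against 2.32, 15.3 and 6.97 RPKM in muscle FAPs. The groups did not overlap, but circulating replicate 2 and muscle replicate 1 lay close to each other. The log2 fold change was -2.25 ± 0.79 (SE; adjusted p = 0.198 in edgeR and 0.0293 in DESeq2). It was under background in all circulating and above it in all muscle libraries.

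Hoxa5, which acts in the cervical and upper thoracic region, had 1.22, 0.949 and 11.2 RPKM in circulating FAPs, against 18.9, 0.652 and 7.55 RPKM in muscle FAPs. High and low libraries occurred in both groups, and the log2 fold change of -1.02 ± 1.18 (SE; adjusted p = 0.634 in edgeR) was 0.05 without muscle replicate 1. Hoxa9, also known for its part in blood stem and progenitor cells, had 0.430, 0.718 and 0.199 RPKM in circulating FAPs, all under background. In muscle FAPs it had 0.257, 0.188 and 4.35 RPKM, so muscle replicate 3 alone was above background, and without it the log2 fold change of -1.84 ± 1.11 (SE; adjusted p = 0.371 in edgeR) was 0.94. Hoxa3, the tested member whose circulating libraries all lay above the muscle libraries, had 0.319 to 0.518 RPKM in circulating FAPs, against 0.102 to 0.227 RPKM in muscle FAPs, and was under background in all 6 libraries. The other Hoxa genes (Hoxa2, Hoxa4, Hoxa6, Hoxa7, Hoxa11 and Hoxa13) were under background throughout.

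In the Hoxd cluster Hoxd8, which lies at the centre of the cluster and acts in the trunk, was the leading gene. It had 1.40, 1.30 and 4.45 RPKM in circulating FAPs, against 4.97, 19.8 and 8.78 RPKM in muscle FAPs, without overlap but with circulating replicate 3 close to muscle replicate 1. The log2 fold change was -2.23 ± 0.82 (SE; adjusted p = 0.204 in edgeR and 0.0381 in DESeq2). Hoxd10, which had too few reads to be tested, had 0.397, 0.245 and 3.57 RPKM in circulating FAPs, against 0, 0.193 and 0.0941 RPKM in muscle FAPs. Its groups did not overlap, and only circulating replicate 3 was above background. The other Hoxd genes (Hoxd1, Hoxd3, Hoxd4, Hoxd9, Hoxd11, Hoxd12 and Hoxd13) were under background throughout. Exons of other genes on the same strand (Gm28230, and Hoxd4 or Hoxd3) cover 62.3% of the exon length of Hoxd3 and 52.3% of that of Hoxd4, so their few reads cannot be divided with certainty.

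The Hoxb cluster gave almost no signal in either group. No library had more than 22 reads for any of its 10 genes, and the cluster held 4.11% ± 1.44 (SD, n = 3) of the summed Hox level in circulating FAPs and 2.10% ± 0.888 in muscle FAPs. The only value above background was Hoxb7 in muscle replicate 3, at 1.22 RPKM. Hoxb4, known from blood stem cells, had 0 to 0.468 RPKM in circulating FAPs and 0 to 0.266 RPKM in muscle FAPs.

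**Figure D3:**
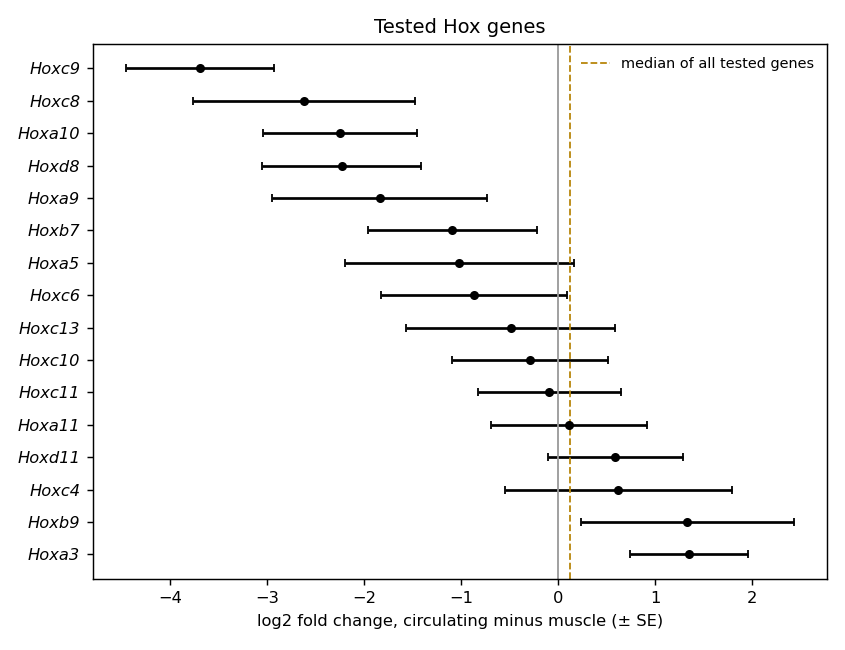
Log2 fold change, circulating minus muscle, of tested Hox genes (points, with SE bars) from the fit over all 20658 genes; the dashed line is the median of all tested genes at 0.12. Hoxc9, at -3.69, is lower than every other gene drawn, and no gene passes an adjusted p of 0.05 in edgeR.

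Of the 4 tested members whose circulating libraries all lay below the muscle libraries, Hoxa10 and Hoxd8 had a promoter window at hand. Their windows are shown to compare their CpG content, since CpG-rich promoters are the usual targets of Polycomb and Trithorax complexes. The windows are from RefSeq on build GRCm38.p6, 250 bases before to 50 after the start, with CG in capitals; the counts were made on GRCm39, and no coordinate was moved between builds.
Hoxa10, chr6:52234890-52235189, minus strand: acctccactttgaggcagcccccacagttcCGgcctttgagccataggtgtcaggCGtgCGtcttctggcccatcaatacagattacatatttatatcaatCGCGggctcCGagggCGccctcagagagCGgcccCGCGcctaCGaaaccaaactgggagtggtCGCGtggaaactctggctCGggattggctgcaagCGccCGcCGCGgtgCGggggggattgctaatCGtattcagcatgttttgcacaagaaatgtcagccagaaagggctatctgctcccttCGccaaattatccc
Hoxd8, chr2:74704365-74704664, plus strand: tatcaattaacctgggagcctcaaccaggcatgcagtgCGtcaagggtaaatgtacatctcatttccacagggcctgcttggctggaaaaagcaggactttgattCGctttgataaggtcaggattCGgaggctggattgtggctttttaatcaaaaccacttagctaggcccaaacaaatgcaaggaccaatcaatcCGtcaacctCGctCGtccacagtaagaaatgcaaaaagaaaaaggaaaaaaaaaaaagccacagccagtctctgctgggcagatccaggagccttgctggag
The Hoxa10 window held 21 CG and the Hoxd8 window 6, and a further Hoxa10 window upstream held 12. The median was 14.5 over 24 windows of 22 Hox genes and 7 over all 32851 windows. Of the Hox windows 12 held at least 15 CG (50%), against 34.6% of all windows. The letters TGATNNAT, a form of the site bound by Hox and Pbx together, were searched on both strands and stood in 4 of the 24 Hox windows, in neither window shown, and in 8.85% of all windows. Among the members that matched no window were Hoxc6, Hoxc8, Hoxc9, Hoxc10 and Hoxc11.

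Summed over all members, Hox genes gave 47.1, 50.6 and 89.4 RPKM in circulating replicates 1, 2 and 3, against 118, 92.1 and 77.5 RPKM in muscle replicates 1, 2 and 3, with overlap. The share of the posterior paralogue groups 9 to 13 was 38.5%, 30.0% and 64.5% in circulating FAPs, against 40.1%, 65.6% and 52.3% in muscle FAPs, so both groups held libraries of either kind. Groups 4 to 8 held 47.1% ± 13.2 (SD, n = 3) in circulating FAPs and 45.4% ± 12.8 in muscle FAPs. The anterior groups 1 to 3 held 7.24%, 14.7% and 3.6% in circulating FAPs, against 1.71%, 1.76% and 2.47% in muscle FAPs, without overlap.

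Within the pattern, paralogue groups 8 and 9 took a smaller share in every circulating library. Group 9 held 3.1%, 4.6% and 3.85% of the summed level in circulating FAPs, against 12.8%, 14.5% and 15.6% in muscle FAPs. Group 8 held 6.04%, 8.01% and 4.98% in circulating FAPs, against 15.3%, 27.6% and 19.8% in muscle FAPs. On both sides of them circulating and muscle FAPs overlapped. Paralogue group 10 held 24.5% ± 14.3 (SD, n = 3) in circulating FAPs and 27.9% ± 12.4 in muscle FAPs. Group 7, next to group 8, held only 1.22% ± 0.794 in circulating FAPs and 1.29% ± 0.443 in muscle FAPs. Of its members only Hoxb7 in muscle replicate 3 was above background. Group 6 held 12.2% ± 5.25 in circulating FAPs and 11.2% ± 9.38 in muscle FAPs. As a score over the members, these shares were not tested, and groups 8 and 9 were picked after their values were seen. In muscle FAPs Hoxc9 held 11.8% ± 2.15 (SD, n = 3) of the summed level, Hoxc8 8.49% ± 2.53 and Hoxd8 12.4% ± 8.71. The shares of groups 8 and 9 thus mostly restate members described above. Paralogue groups 1 and 3 did not overlap between circulating and muscle FAPs either, and took larger shares in circulating FAPs.

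**Figure D4:**
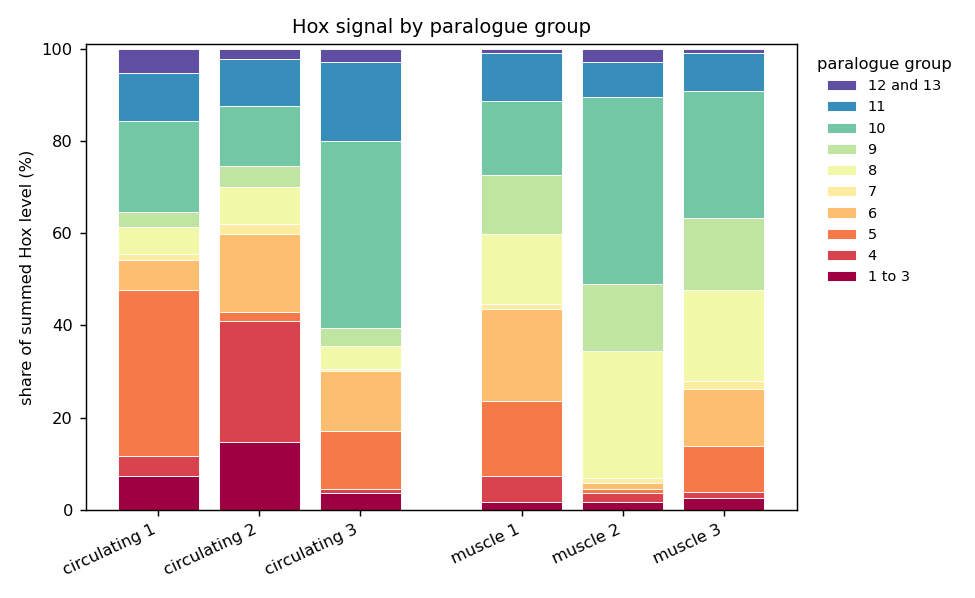
Share of the summed Hox level (%, RPKM) by paralogue group in each library, circulating left of muscle. The bands of groups 8 and 9 are narrow in the 3 circulating libraries (4.98% to 8.01% and 3.1% to 4.6%) and wide in the 3 muscle libraries (15.3% to 27.6% and 12.8% to 15.6%), and the bands of groups 4 to 6 and 10 differ between libraries of the same group.

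The Hox pattern differed between libraries of a group, more in some members than in genes of like abundance. In muscle FAPs, Hoxa5 differed 29.0-fold between the lowest and highest library, Hoxa9 23.1-fold and Hoxc6 19.3-fold, against 1.98-fold for Hoxc9, 1.69-fold for Hoxc11 and 1.55-fold for Hoxc10. The coefficient of variation of Hoxa9 in muscle, 149%, was above that of 98.3% of tested genes within 2-fold of its mean CPM. That of Hoxc10 in muscle, 22.6%, was above that of 12.2% of genes within 2-fold of its own mean. In circulating FAPs Hoxc10 and Hoxc11 were less steady, at 104% and 88.6%, above 85.1% and 83.5% of such genes. Muscle replicate 2 combined the lowest muscle levels of Hoxa5 and Hoxc6 with the highest of Hoxa10, Hoxc10 and Hoxd8, and muscle replicate 1 the reverse for Hoxa5, Hoxc6, Hoxa10 and Hoxd8. In circulating FAPs the most abundant member was Hoxc5 in replicate 1, Hoxc4 in replicate 2 and Hoxc10 in replicate 3, and Hoxc4 differed 19.6-fold between libraries. In muscle FAPs it was Hoxc6 in replicate 1 and Hoxc10 in replicates 2 and 3.

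Noncoding genes of the clusters were mostly low. Hotair, a long noncoding RNA transcribed opposite to the genes between Hoxc11 and Hoxc12, had 11, 30 and 14 reads in circulating FAPs, against 203, 22 and 9 reads in muscle FAPs (log2 fold change -1.17 ± 1.09, SE; adjusted p = 0.550 in edgeR). Hoxa11os, antisense to Hoxa11, had 21, 2 and 8 reads in circulating FAPs, against 105, 8 and 104 reads in muscle FAPs (-2.13 ± 0.92, SE; adjusted p = 0.245). Exons of Hoxa11os cover 35.0% of the exon length of Hoxa11, and no source used here states that strand was used in counting, so reads of such pairs cannot be told apart. Hotairm1 and Hotairm2 had identical counts in all 6 libraries. Of the microRNA genes in the clusters, Mir10a, Mir10b, Mir196a-1, Mir196a-2, Mir196b and Mir615 had at most 2 reads in any library.

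Genes that mark limb type were present at low level. Tbx5, the forelimb factor, had 5.14, 0.858 and 1.15 RPKM in circulating FAPs, against 3.99, 2.21 and 6.25 RPKM in muscle FAPs (log2 fold change -0.79 ± 0.82, SE; adjusted p = 0.590 in edgeR). Tbx4, the hindlimb factor, had 0.353, 0.655 and 1.03 RPKM in circulating FAPs, all under background, against 1.02, 1.52 and 3.87 RPKM in muscle FAPs (-1.66 ± 0.68, SE; adjusted p = 0.230). Pitx1, which sets hindlimb identity, was under background in all 6 libraries, at 0.836 to 1.58 RPKM in circulating FAPs and 0.0658 to 1.35 RPKM in muscle FAPs. Isl1, which acts upstream in the hindlimb bud, had 0.421 to 0.879 RPKM in circulating FAPs, against 1.88 to 3.26 RPKM in muscle FAPs, without overlap (-2.04 ± 0.58, SE; adjusted p = 0.158 in edgeR and 0.0170 in DESeq2). Tbx5 was above background in all 3 muscle libraries.

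No gene of the 7 lists of positional regulators passed in edgeR, of 69 tested. In DESeq2 9 were lower (13% of those tested, against 5.43% of all genes) and 1 higher (against 1.02%). Counts of negative values in these lists stand beside 46.6% of all tested genes, and genes of at least 20 CPM, whatever their function, had a median log2 fold change of -0.66. Of the 9 TALE cofactors 4 had a negative log2 fold change and their median was 0.04. Pknox1 had 2.42 to 4.19 RPKM in circulating FAPs and 4.01 to 6.95 RPKM in muscle FAPs (-0.68 ± 0.62, SE; adjusted p = 0.542 in edgeR). Meis3 was the TALE gene that passed in DESeq2 (adjusted p = 0.0269; adjusted p = 0.198 in edgeR), at 0.700 to 2.57 RPKM in circulating FAPs, against 6.22 to 8.56 RPKM in muscle FAPs.

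Among 19 patterning factors of trunk and limb mesenchyme, 14 had a negative log2 fold change and the median was -0.73. The most abundant were Twist1, a mesenchymal bHLH factor, at 18.1 to 63.3 RPKM in circulating FAPs and 20.4 to 81.8 RPKM in muscle FAPs, and Tbx15, a factor of trunk skin, skeleton and muscle, at 11.9 to 35.1 RPKM in circulating FAPs and 19.7 to 63.9 RPKM in muscle FAPs. Neither passed (adjusted p = 0.916 and 0.424 in edgeR). Prrx2, Tbx18, Tbx2 and Gli3 were lower and Emx2 higher in DESeq2 (adjusted p = 0.00260, 0.00254, 0.0143, 0.0311 and 0.0232), with adjusted p of 0.147 to 0.198 in edgeR. Emx2, which acts in scapula and urogenital development, had 18.9, 1.56 and 4.87 RPKM in circulating FAPs, against 0.444, 1.16 and 1.68 RPKM in muscle FAPs, so circulating replicate 2 lay below muscle replicate 3.

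Factors of head mesenchyme, which forms without Hox genes, were near silent. None of 12 was above background in all libraries of a group. The 5 of them that were tested all had a positive log2 fold change, with a median of 2.03, at levels under background in most libraries. Of all tested genes, 46.6% had a negative value. Genes of low abundance, whatever their function, had positive medians, 0.71 at 0 to 2 CPM and 0.42 at 2 to 20 CPM. The highest was Lhx8, at 0.440 to 3.65 RPKM in circulating FAPs and 0.270 to 0.690 RPKM in muscle FAPs. The Cdx factors, which switch on posterior Hox genes in the embryo, were under background throughout, with Cdx4 at 0.856 to 1.13 RPKM in circulating FAPs and 0.0435 to 0.522 RPKM in muscle FAPs, and Cdx2 at 0.197 to 0.655 RPKM in circulating FAPs and 0.181 to 0.464 RPKM in muscle FAPs.

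Among Polycomb subunits, which repress Hox genes, 16 of 20 tested had a negative log2 fold change, with a median of -0.56. Rbbp7, a histone-binding subunit of this and other complexes, had 51.9, 8.57 and 17.6 RPKM in circulating FAPs, against 78.2, 44.7 and 41.3 RPKM in muscle FAPs (-1.07 ± 0.67, SE; adjusted p = 0.386 in edgeR). Rnf2, the ubiquitin ligase of PRC1, had 9.95, 57.9 and 1.93 RPKM in circulating FAPs, against 52.1, 29.9 and 18.5 RPKM in muscle FAPs (adjusted p = 0.766). Ezh1 and Eed were lower in DESeq2 (adjusted p = 0.0104 and 0.00496), with adjusted p of 0.187 and 0.171 in edgeR and no overlap between the groups. Among 11 MLL and Trithorax subunits and related factors, which keep Hox genes on, 10 had a negative value and the median was -0.71, and none passed in DESeq2. Dpy30, a core subunit of the MLL complexes, had 20.8, 15 and 4.04 RPKM in circulating FAPs, against 88, 21.3 and 45.6 RPKM in muscle FAPs (-1.96 ± 0.81, SE; adjusted p = 0.233 in edgeR). Kdm6b, which removes the Polycomb mark, had 18.1 to 29.7 RPKM in circulating FAPs, against 33.4 to 44.4 RPKM in muscle FAPs (-0.79 ± 0.41, SE; adjusted p = 0.310). With scaling on abundant genes the median of all tested genes moved up by 0.71, and Pknox1, Twist1 and Rnf2 then stood at 0.09, 0.51 and 0.31 but at -0.74, -0.32 and -0.52 relative to that median.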

How the data were processed

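Per the labels' protocols, lysis was in RLT plus buffer and a TruePrep kit was used for the libraries. The authors deposited raw counts of reads per gene symbol; Trim Galore, STAR, featureCounts and build GRCm39 are named per the submitters' processing notes, without versions, options or annotation. Of counts from 1 to 9, 62.6% to 78.2% were even in each library, so counts may not be independent fragments, and no counting interval is given.

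Rn18s and Rn18s-rs5 were removed before library sizes, scaling and tests. edgeR 4.0.16 in R 4.3.3 (robust quasi-likelihood F test, TMM, filterByExpr) compared the groups over the whole table. The SE is the log2 fold change divided by the square root of F. Adjusted p is Benjamini-Hochberg over all tested genes. DESeq2 1.42.0, other scalings, filters, a replicate block and each library left out were alternatives. Exon lengths came from GENCODE M21 (GRCm38), which matched 91.5% of symbols, and no coordinates were moved between builds. Replicates of a group differed far beyond sampling noise (chi-square per degree of freedom 46.2 to 97.3). Named in full are members past the threshold and the 12 with the highest mean level; per regulator list, up to 3 past the threshold or else the 2 most abundant; others were named after their values were seen. Some items, among them genes that this rule names, are not reported here. The Hox genes and lists were chosen with earlier results of these data known.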

Additional observations from a re-analysis of the deposited data

How the results depend on the processing

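Hoxc9, Hoxc8, Hoxa10 and Hoxd8 kept a negative log2 fold change under every alternative that could be fitted to them (15, or 14 for Hoxa10). Relative to the median of all tested genes under the same setting, Hoxc9 lay between -4.27 and -3.14, Hoxc8 between -3.71 and -2.01, Hoxa10 between -2.93 and -1.71 and Hoxd8 between -3.17 and -1.73. Hoxc9 passed without a filter (adjusted p = 0.0490 in edgeR, where 0.431% of genes were called lower) and in DESeq2. Over all alternatives its adjusted p ran from 1.09e-05 to 0.255. The cause of these changes was not tested.

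Hox members called numbered 0, but 1 without a filter and 3 with DESeq2; regulators called numbered 0, but 10 with DESeq2. Genes called over the whole table numbered 26, but 43 with RLE size factors, 1 with upper quartile scaling, 10 with library size only, 2 with scaling on abundant genes, 141 without a filter and 1333 with DESeq2, and 1 to 66 when a library was left out (66 without circulating replicate 1 and 1 without each of the others). No label used here states whether the replicate numbers pair samples. The correlations of same-numbered deviations were 0.00585 to 0.0378, and 2 of 6 samples correlated best with their own number. With 3 libraries per group these values cannot decide whether samples were paired. With a replicate block 1 gene was called over the whole table and no Hox member. The Hox median of -0.49, over 17 members, was 0.47 without a filter, over 39 members. It was between -0.29 and 0.18 with a library left out, where the filter kept 21 to 24 members, so the gene set changed too. The median of all tested genes moved by 0.71 with upper quartile scaling or scaling on abundant genes, and by 0.65 with library size only. Circulating members above background numbered 3, but 1 with 5 times the median of the silent genes and 1 with their 99th percentile; muscle members numbered 6, and 6 and 5 under these settings. The posterior share was 34.3% to 51.5% in circulating and 46.2% to 58.9% in muscle FAPs with a library left out.

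The sign turned in 29 cases, none of them past the threshold. Of these, 15 came with 3 scalings that raised the median of all genes by 0.65 to 0.71, and 0 of these 15 turned relative to that median. Of the other 14, 10 turned relative to it. With upper quartile scaling Hoxc10 was at 0.40, Hoxc11 at 0.63, Pknox1 at 0.07, Twist1 at 0.51 and Rnf2 at 0.24. With library size only they were at 0.35, 0.61, 0.05, 0.45 and 0.29. With scaling on abundant genes they were at 0.39, 0.64, 0.09, 0.51 and 0.31. With a filter of 10 CPM in 3 samples Hoxc10 was at 0.28, Hoxc11 at 0.52, Twist1 at 0.39 and Rnf2 at 0.18. With 1 library left out, Hoxc10 ran from -1.67 to 0.08, Hoxc11 from -1.19 to 0.19, Hoxc6 from -1.46 to 0.18, Hoxa5 from -3.13 to 0.05, Hoxc4 from -1.89 to 2.2, Hoxa9 from -2.43 to 0.94 and Twist1 from -0.57 to 0.31. The libraries whose absence turned a sign were circulating replicate 1 (Hoxc11), circulating replicate 2 (Hoxc10, Hoxc11, Hoxc4 and Twist1), muscle replicate 1 (Hoxc6, Hoxc11, Hoxa5 and Twist1) and muscle replicate 3 (Hoxa9). Levels under 2.07 to 2.56 RPKM in circulating FAPs and 0.992 to 1.41 RPKM in muscle FAPs lay within background, and what sets it was not tested.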
